A study of Mus musculus with 12 samples.

Results

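Peroxisome genes were followed in mouse primary CD8+ T cells as a group of 28 genes out of the 54532 genes listed in the deposited expression files. They were chosen by name, with earlier results of these data known. The group comprised 12 peroxins, 3 ABC transporters of the D family and 13 enzymes, nearly all of fatty acid metabolism. All 28 names were found once each in every library. The study asked how far the transcriptional effect of trans-vaccenic acid (TVA), a long-chain trans fatty acid of ruminant milk and meat, on CD8+ T cells depends on the transcription factor CREB. Cells were isolated, activated and given a siRNA, a short RNA that lowers the mRNA it matches, before TVA was added, and RNA-seq was made from 3 libraries in each of 4 groups. The siNTC group received a non-targeting siRNA and the solvent DMSO, and the siNTC+TVA group received the same siRNA and TVA. The siCreb1 group received a siRNA against Creb1 and DMSO, and the siCreb1+TVA group received that siRNA and TVA. The labels call the siNTC cells WT and the siCreb1 cells Creb1 KD, and all groups share primary CD8+ T cells and a time of 24 hours. The knockdown was transient and made in a cell population, and some Creb1 reads were present in every siCreb1 library. The labels do not say whether the 3 libraries of a group came from separate mice or cultures, so all p-values below measure only the spread between these libraries.

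Peroxisomes are small organelles with a single membrane that shorten very long-chain and branched fatty acids, break down hydrogen peroxide and begin the synthesis of ether lipids. Peroxins, named Pex, build the organelle: PEX3, PEX16 and PEX19 place its membrane proteins, PEX5 and PEX7 carry matrix enzymes from the cytosol, PEX13 and PEX14 form the docking site on the membrane, PEX2 and PEX10 belong to the ubiquitin ligase that recycles the receptors, and PEX6, anchored by PEX26, pulls the receptors back out. In liver many of these enzymes are known targets of PPARα, a fatty acid-activated nuclear receptor, and T cells also contain peroxisomes.

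The libraries held between 16660234 and 24602484 reads, recovered from FPKM (fragments scaled by gene length and by the number of mapped fragments) and gene length, with 19456 to 20993 genes above 0. Creb1, the targeted gene, was lower in all libraries labelled siCreb1. Creb1 was 10.6 ± 0.359 FPKM (SD, n = 3) in siNTC, 11.8 ± 0.711 in siNTC+TVA, 1.42 ± 0.314 in siCreb1 and 1.55 ± 0.338 in siCreb1+TVA. Its values ran from 10.3 to 12.4 FPKM over the 6 siNTC libraries and from 1.17 to 1.81 over the 6 siCreb1 libraries, with no overlap. The log2 fold change was -2.27 without TVA (limma, adjusted p = 2.21e-06) and -2.34 with TVA (adjusted p = 2.45e-06). Markers of CD8 T cells were high in every library, with a summed level of 2034 to 2176 FPKM over 6 genes. The sums were 9.45 to 14.2 FPKM for 4 B cell markers, 4.93 to 8.88 for 5 myeloid markers, 3.83 to 5.24 for 2 NK cell markers, 3.34 to 4.67 for 2 markers of CD4 T cells and at most 0.424 for 2 erythroid markers. In bulk RNA, fewer cells of a type and less RNA per cell cannot be told apart.

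The peroxisome genes were expressed over a wide range that was set by the gene and hardly by the group. By mean FPKM over the 12 libraries, 11 genes were at 10 or more, 14 were between 1 and 10, and 3 were under 1. The median over the 25 genes at 1 or more was 6.15 FPKM, against 8.17 FPKM over all 11550 genes at that level. Scp2, which encodes sterol carrier protein and its thiolase form for branched substrates, was the highest. Scp2 was 44.6, 41.9 and 45.8 FPKM in siNTC, 42.9, 43.5 and 44.9 in siNTC+TVA, 40.2, 41.9 and 39.9 in siCreb1, and 42.2, 41.1 and 43.3 in siCreb1+TVA. Cat, the catalase that removes hydrogen peroxide, came next, with group means of 37.1 to 38.4 FPKM. Ech1, a dienoyl-CoA isomerase, averaged 22.6 FPKM, Acaa1a, the thiolase of straight-chain β-oxidation, 20.5, and Hsd17b4, the bifunctional enzyme of the middle steps, 17.9. Of the import machinery, Pex6 (15.3 FPKM), Pex5 (12.8), Pex2 (12.3), Pex16 (11.99) and Pex19 (11.8) stood above 10, as did Crot (10.9), which turns shortened acyl-CoAs into carnitine esters for export. Of the 27 pairs of neighbours in this order, 23 had overlapping ranges over the 12 libraries. The 4 gaps lay between Scp2 and Cat, Cat and Ech1, Crot and Phyh, and Acox3 and Pex3.

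The middle of the order held several enzymes for branched and unsaturated fatty acids. Phyh, which starts the α-oxidation of phytanic acid, averaged 7.35 FPKM, Eci2, an enoyl-CoA isomerase, 6.15, Decr2, the peroxisomal dienoyl-CoA reductase, 5.27, and Acox3, an oxidase of branched acyl-CoAs, 5.20. Pex3 (3.96 FPKM), Pex13 (3.73), Abcd3 (3.54), which imports branched acyl-CoAs and bile acid precursors, and Pex26 (3.42) followed. The lowest tested genes were Pex10 (2.49 FPKM), Abcd4 (2.06), which is now known to act in lysosomal cobalamin transport, Pex14 (1.97), Pecr (1.81), a trans-2-enoyl-CoA reductase, Pex7 (1.77) and Amacr (1.03), which flips the stereochemistry of branched acyl-CoAs. Amacr rested on 22 to 92 reads per library and Pecr on 39 to 69. The 3 genes under 1 FPKM were near the detection limit and were not tested. Abcd2, a transporter of very long-chain acyl-CoAs, was 0.118, 0.126 and 0.105 FPKM in siNTC, 0.146, 0.121 and 0.0579 in siNTC+TVA, 0.0965, 0.113 and 0.0532 in siCreb1, and 0.105, 0.155 and 0.0838 in siCreb1+TVA. These values came from 7 to 23 reads and the groups overlapped. Hacl1, the lyase that follows PHYH in α-oxidation, held 14 to 37 reads per library, and Pex11a, a PPARα-inducible factor of peroxisome elongation, 3 to 34. No fold change of these genes could be resolved at this depth.

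**Figure D1:**
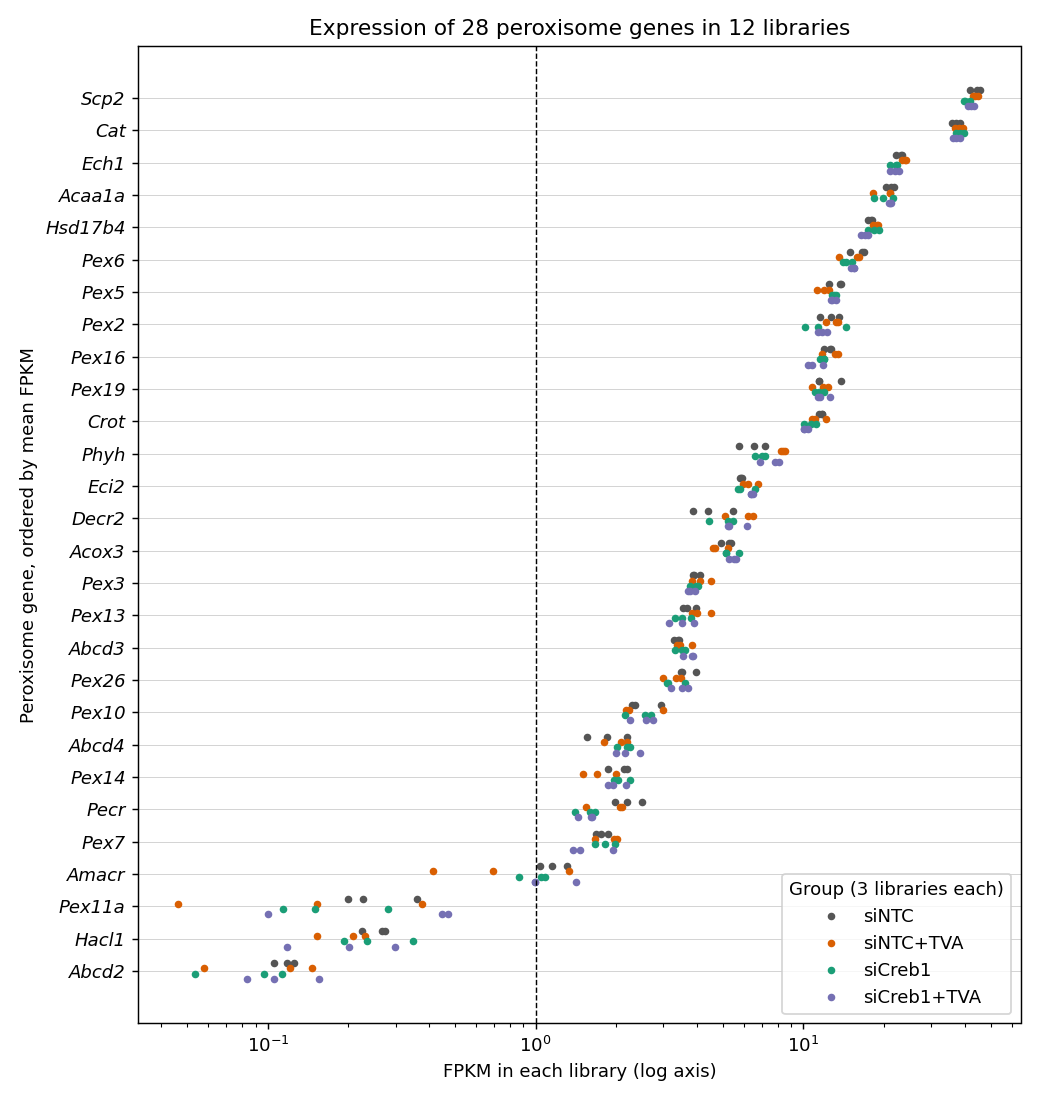
FPKM of the 28 peroxisome genes (rows, ordered by mean FPKM) on a log axis, with 1 point per library and colours for the 4 groups of 3 libraries; the dashed line is the 1 FPKM minimum for testing. The points of the 4 groups lie on top of each other for most genes, from Scp2 at 42.7 FPKM to Abcd2 at 0.107 FPKM.

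Some reads can be shared with other genes. Exons of Pex16 overlapped those of Large2 on the opposite strand over 127 bases (7.2% of its exonic bases). Large2 averaged 3.7 reads per library, against 440.4 for Pex16. Exons of Acaa1a overlapped Myd88 over 290 bases (6.6%) and those of Pex3 overlapped Adat2 over 249 bases (5.3%). Hacl1, at 23.6 reads on average, shared 108 bases (2.2%) with Btd on the opposite strand, at 374.8 reads. Whether the counting used strand was not given in the sources used here, so the values of Pex16, Acaa1a, Pex3 and Hacl1 are uncertain to that extent. Acaa1a also has a near-identical copy, Acaa1b, which held 0 to 2 reads per library, and a split of reads between them is uncertain.

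The sequence upstream of the start was read from RefSeq on GRCm38.p6 for the peroxisome genes with an entry, 22 of 28 genes with 26 windows of 250 bases before and 50 after the start. The cAMP response element bound by CREB, TGACGTCA, was found on either strand in 1 window, that of Pex13, against 1.79% of all 32851 windows. The shorter element TGACG, which lies within the full one, was in 8 windows (30.8%, against 20.81% of all), of Abcd3, Acox3, Pex10, Pex13, Pex5, Pex6, Pex7 and Scp2. The element of PPAR receptors, searched as a pair of AGGTCA in the same direction with 1 base between them, was in 0 of 26 windows and in 0.04% of all. GC boxes (GGGCGG, which can overlap each other) were in 19 windows (73.1%, against 35.66% of all), CCAAT in 10 (38.5%, against 37.41%) and TATAAA in 3 (11.5%, against 13.62%). The median GC content was 58.17% against 52.67% of all windows, and the median number of CpG dinucleotides was 16.5 against 7. All windows were taken without regard to expression, and windows of expressed genes were not compared separately. A match of letters is not a bound site, and its absence in this window says nothing about a factor. The 250 bases before the start are shown for the 3 called genes that have an entry and for Pex13, with matches on either strand in capitals.
Phyh, chr2:4918746-4918995, + strand: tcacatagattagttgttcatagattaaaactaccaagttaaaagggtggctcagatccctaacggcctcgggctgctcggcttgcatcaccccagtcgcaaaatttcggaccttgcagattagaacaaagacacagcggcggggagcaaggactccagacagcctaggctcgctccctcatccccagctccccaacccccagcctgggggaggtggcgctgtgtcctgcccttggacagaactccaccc
Pecr, chr1:72284322-72284571, - strand: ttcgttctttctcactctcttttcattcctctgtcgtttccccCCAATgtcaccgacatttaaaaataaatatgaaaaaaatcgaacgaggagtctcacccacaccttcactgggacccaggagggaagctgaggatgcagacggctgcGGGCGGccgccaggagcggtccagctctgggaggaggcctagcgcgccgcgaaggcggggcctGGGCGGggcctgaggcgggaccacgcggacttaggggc
Pex16, chr2:92374426-92374675, + strand, the first of 2 windows: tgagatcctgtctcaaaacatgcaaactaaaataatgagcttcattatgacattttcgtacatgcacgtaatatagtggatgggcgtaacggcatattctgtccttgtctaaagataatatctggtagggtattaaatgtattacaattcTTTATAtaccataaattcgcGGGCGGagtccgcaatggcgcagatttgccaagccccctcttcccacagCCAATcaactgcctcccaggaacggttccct
Pex13, chr11:23665884-23666133, - strand: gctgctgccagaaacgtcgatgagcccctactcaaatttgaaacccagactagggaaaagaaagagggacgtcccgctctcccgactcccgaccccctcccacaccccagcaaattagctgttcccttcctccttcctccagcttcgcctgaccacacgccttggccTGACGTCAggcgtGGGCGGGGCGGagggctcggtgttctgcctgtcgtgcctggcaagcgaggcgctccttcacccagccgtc
None of the motifs searched was found upstream of Phyh. The capitals mark GC boxes at 101 to 96 and 38 to 33 bases before the start and CCAAT at 207 to 203 in Pecr. In Pex16 they mark TATAAA, read on the other strand, at 100 to 95, a GC box at 80 to 75 and CCAAT at 31 to 27. In Pex13 they mark the cAMP response element at 83 to 76 and a pair of overlapping GC boxes at 70 to 60.

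TVA in siNTC cells left nearly all peroxisome genes within the spread of the libraries, and 1 enzyme rose. Of the 25 tested genes, 1 was called higher at an adjusted p under 0.05 (limma), against 4.49% of all tested genes, and 0 lower, against 2.88%, or 7.38% of all tested genes in either direction. Phyh (ENSMUSG00000026664, chr2:4919019-4938730, GRCm38) was 6.51, 7.17 and 5.76 FPKM in siNTC and 8.23, 8.41 and 8.52 in siNTC+TVA. All 3 TVA libraries lay above all 3 siNTC libraries, and the ratio of the means was 1.30. On the log2(FPKM + 1) scale, which understates changes of low genes, the difference was 0.33 ± 0.07 (SE, 95% interval 0.17 to 0.49, adjusted p = 0.0181). Without siNTC replicate 3 the adjusted p was 0.0517, without siNTC+TVA replicate 2 it was 0.0584 and without siNTC+TVA replicate 3 it was 0.0597. Phyh rested on 226 to 385 reads per library.

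The other enzymes showed no call with TVA in siNTC cells. Decr2 was 3.88, 5.45 and 4.41 FPKM in siNTC and 6.20, 6.46 and 5.07 in siNTC+TVA. These groups overlapped, and the difference of 0.31 (95% interval 0.06 to 0.57) had an adjusted p of 0.142. Pex5 was the member of the import machinery with the smallest p, at 13.7, 13.9 and 12.4 FPKM in siNTC and 12.4, 11.9 and 11.3 in siNTC+TVA (difference -0.15, adjusted p = 0.0743). Amacr had the widest interval, -0.65 to 0.08, with siNTC+TVA libraries from 0.415 to 1.33 FPKM. It was the 1 gene of 25 whose interval reached past 0.585 on the log2(FPKM + 1) scale, so that 24 of 25 lay within 0.585 either way, against 89.3% of all tested genes. For genes of a few FPKM this limit allows a larger ratio of FPKM than 1.5. The libraries of the groups did not overlap for 3 genes that were higher (Phyh, Eci2 and Hsd17b4) and for 0 that were lower, against 11.7% and 12.2% of all tested genes. The median difference was 0.04 over the 25 genes and -0.01 over all tested genes.

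TVA in siCreb1 cells gave no call among the peroxisome genes. The count was 0 of 25 by limma and also by limma-voom on the recovered reads, against 0.537% of all tested genes (0.121% higher and 0.416% lower). At an unadjusted p under 0.05 there was 1 gene, Hsd17b4, against 9.58% of all tested genes. Hsd17b4 was 18.4, 17.44 and 19.1 FPKM in siCreb1 and 16.4, 17.35 and 17.0 in siCreb1+TVA, a difference of -0.11 (adjusted p = 0.353). It was the 1 gene with lower, non-overlapping libraries, against 9.01% of all tested genes, and 0 were higher, against 8.09%. Phyh was 7.18, 6.62 and 7.002 FPKM in siCreb1 and 6.87, 8.13 and 7.80 in siCreb1+TVA, and these groups overlapped. The difference of Phyh was 0.11 (95% interval -0.04 to 0.27, adjusted p = 0.683). All 25 intervals lay within 0.585 either way on the log2(FPKM + 1) scale, against 90.9% of all tested genes. The median difference was 0.02 over the 25 genes and 0.00 over all tested genes.

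**Figure D2:**
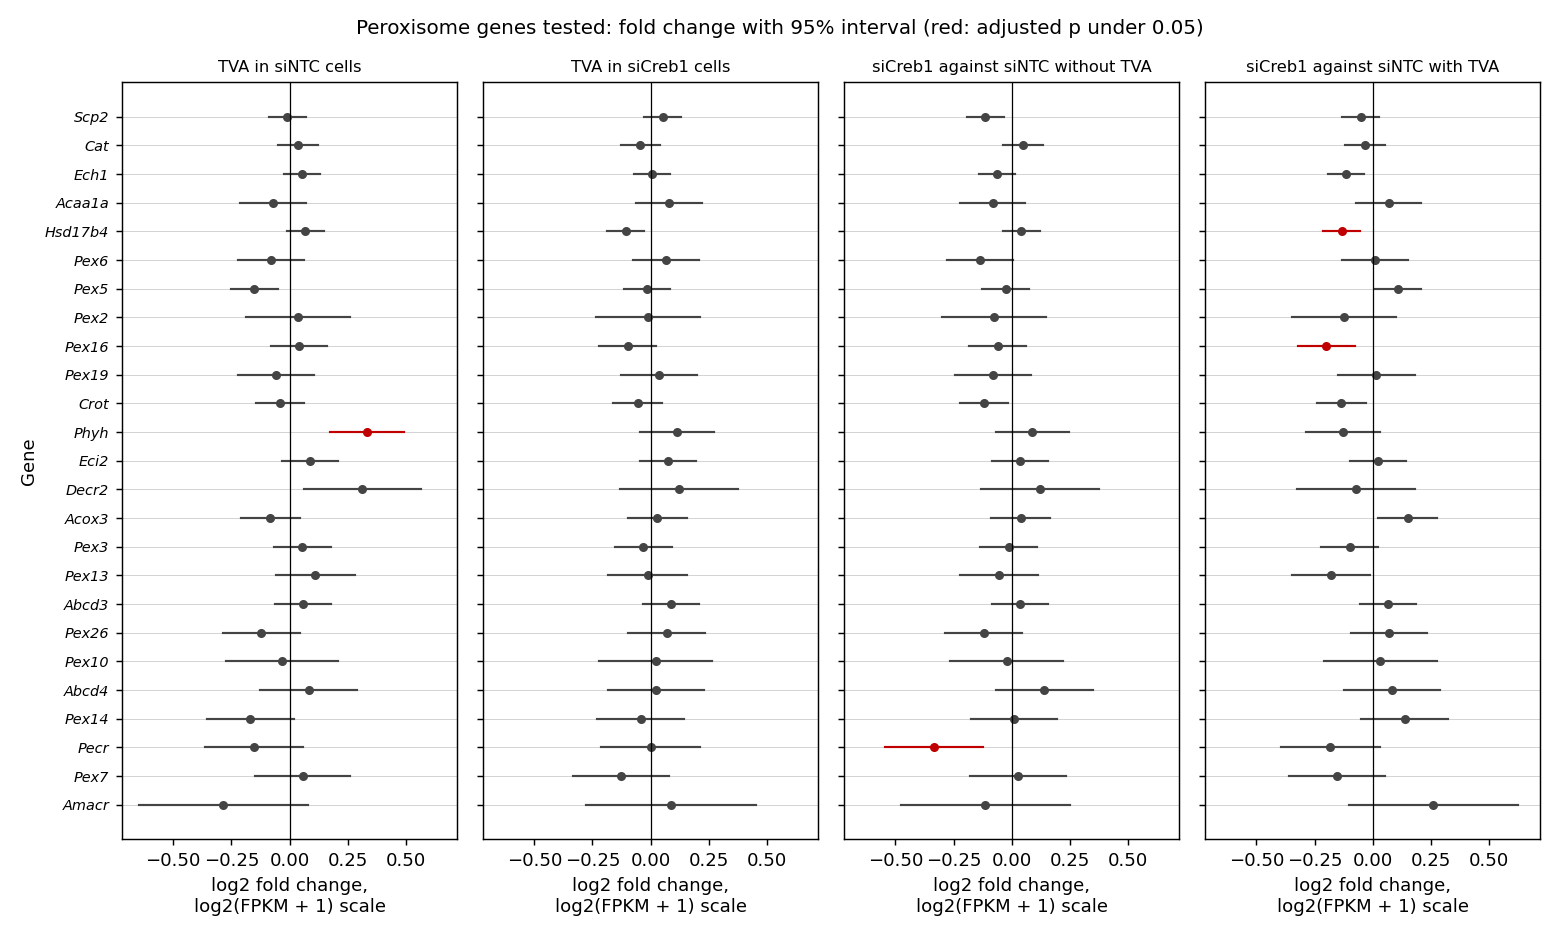
Log2 fold change (points, on the log2(FPKM + 1) scale) with its 95% interval (lines) for the 25 tested peroxisome genes in 4 comparisons, rows ordered by mean FPKM, with adjusted p under 0.05 in red. Red marks stand at Phyh with TVA in siNTC cells (0.33), at Pecr with knockdown without TVA (-0.33), and at Hsd17b4 (-0.13) and Pex16 (-0.20) with knockdown under TVA.

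Knockdown of Creb1 without TVA lowered 1 weakly expressed enzyme and left the peroxins without a call. Of 25 genes, 0 were called higher, against 6.52% of all tested genes, and 1 lower, against 7.21%, or 13.7% of all tested genes in either direction. Pecr (ENSMUSG00000026189, chr1:72259167-72284314) was 1.98, 2.50 and 2.20 FPKM in siNTC and 1.67, 1.59 and 1.40 in siCreb1. The groups did not overlap, and the ratio of the means was 0.699. The difference was -0.33 ± 0.10 (SE, 95% interval -0.55 to -0.12, adjusted p = 0.0424). This call was lost without siNTC replicate 2 or 3 and without any single library of siCreb1 or siCreb1+TVA, with adjusted p up to 0.133. It was also lost in other fits of the same values, with an adjusted p of 0.149 by limma-voom. In the TVA-treated groups Pecr was 2.07, 1.55 and 2.11 FPKM in siNTC+TVA and 1.62, 1.61 and 1.43 in siCreb1+TVA, which overlapped (difference -0.18, adjusted p = 0.262).

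Among the abundant enzymes Scp2, with the values given above, had a difference of -0.11 without TVA (adjusted p = 0.0631). Its siNTC and siCreb1 libraries did not overlap, but only barely, with the nearest at 41.87 FPKM in siNTC and 41.85 in siCreb1. Crot was 11.8, 11.4 and 11.7 FPKM in siNTC and 11.2, 10.7 and 10.1 in siCreb1, a difference of -0.12 that also did not overlap (adjusted p = 0.126). Together with Pecr these were the 3 genes with lower, non-overlapping libraries, against 16% of all tested genes, and 0 were higher, against 15.5%. Cat stayed at 38.5, 35.8 and 37.1 FPKM in siNTC and 39.8, 38.3 and 37.2 in siCreb1 (adjusted p = 0.478). Of the 11 tested peroxins the lowest adjusted p was 0.194, at Pex6 (difference -0.14). All 25 intervals lay within 0.585 either way on the log2(FPKM + 1) scale, against 89.2% of all tested genes, and the median difference was -0.03 over the 25 genes and 0.00 over all tested genes. After rescaling to TPM these medians were 0.02 and 0.04.

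With TVA present, knockdown of Creb1 was accompanied by small decreases of 1 enzyme and 1 membrane biogenesis factor. Of 25 genes, 0 were called higher, against 4.64% of all tested genes, and 2 lower, against 5.51%, or 10.1% of all tested genes in either direction. Hsd17b4 (ENSMUSG00000024507, chr18:50128201-50196269) was 18.9, 18.9 and 18.2 FPKM in siNTC+TVA and 16.4, 17.4 and 17.0 in siCreb1+TVA. The groups did not overlap, the ratio of the means was 0.907, and the difference was -0.13 ± 0.04 (SE, adjusted p = 0.0419). Pex16 (ENSMUSG00000027222, chr2:92374676-92381217) was 13.4, 13.1 and 11.8 FPKM in siNTC+TVA and 11.8, 10.4 and 10.7 in siCreb1+TVA. One library of each group crossed into the other's range, the ratio of the means was 0.861, and the difference was -0.20 ± 0.05 (SE, adjusted p = 0.0445). Each of these calls was lost in 9 of the 12 fits that left out 1 library, with adjusted p up to 0.133 for Hsd17b4 and 0.146 for Pex16. Both calls were also lost with no filter on low genes, after rescaling to TPM, without the mean-variance trend, by limma-voom, under a replicate block and in a fit of only the libraries compared, with adjusted p up to 0.214 and 0.167. Hsd17b4 kept its call without siNTC replicate 1 and without siCreb1 replicate 2 or 3, and Pex16 kept its call without siNTC replicate 1, siNTC+TVA replicate 3 or siCreb1+TVA replicate 1. Without TVA the corresponding differences were 0.04 for Hsd17b4 (adjusted p = 0.517) and -0.06 for Pex16 (adjusted p = 0.521). There Hsd17b4 was 17.41, 17.83 and 18.06 FPKM in siNTC, with its siCreb1 values given above. Pex16 was 11.91, 12.53 and 12.69 FPKM in siNTC and 11.91, 11.57 and 11.98 in siCreb1.

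Other genes of this comparison had libraries that did not overlap between the groups, without a call. Ech1 was 23.3, 23.8 and 24.2 FPKM in siNTC+TVA and 22.0, 21.01 and 22.7 in siCreb1+TVA (difference -0.11, adjusted p = 0.0662). Crot differed by -0.13 (adjusted p = 0.0979) and Phyh by -0.13 (adjusted p = 0.286), both lower, while Acox3 differed by 0.15 (adjusted p = 0.131) and Pex5 by 0.11 (adjusted p = 0.159), both higher. In all, 4 genes were lower and 2 higher without overlap, against 17.6% and 14.3% of all tested genes. Pex13, with the cAMP response element in its upstream window, was 4.51, 3.83 and 3.99 FPKM in siNTC+TVA and 3.51, 3.90 and 3.14 in siCreb1+TVA. Its groups overlapped, with a difference of -0.18 with TVA (adjusted p = 0.163) and of -0.06 without TVA (adjusted p = 0.695). The 8 genes with the shorter element, Pex13 among them, had differences from -0.18 to 0.15 with TVA and from -0.14 to 0.04 without TVA. Of these, 0 were called in either comparison, against 10.1% of all tested genes with TVA and 13.7% without. With only 8 genes, this count does not set them apart from all tested genes. The median difference with TVA was -0.03 over the 25 genes and -0.01 over all tested genes, and 24 of 25 intervals lay within 0.585 either way on the log2(FPKM + 1) scale, against 89.4% of all tested genes. After rescaling to TPM the medians were 0.02 and 0.04.

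Other cell type markers moved in this comparison too. The 5 myeloid markers summed to 4.93 to 6.39 FPKM in siNTC+TVA and to 7.73 to 8.88 in siCreb1+TVA, of which Lyz2 was the only one above 1 FPKM (5.48 against 7.54 FPKM, adjusted p = 0.0478). Cd14 and Adgre1 were at 0 in some libraries. The 6 CD8 T cell markers summed to 2143 to 2158 FPKM in siNTC+TVA and to 2049 to 2076 in siCreb1+TVA, but the sums overlapped after rescaling to TPM and the markers went both ways. Cd8b1 was lower, at 934 against 846 FPKM (adjusted p = 0.00224), and so was Cd3d, at 247.7 against 226.2 (adjusted p = 0.01585). Cd3g (129.3 against 123, adjusted p = 0.125) and Lck (317.6 against 311.5, adjusted p = 0.479) were lower without a call. Cd8a was higher, at 424 against 450.1 FPKM (adjusted p = 0.0068), and Cd3e was 97.1 against 104 FPKM without a call (adjusted p = 0.0731). The part of these shifts in the values of Hsd17b4 and Pex16 was not tested.

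**Figure D3:**
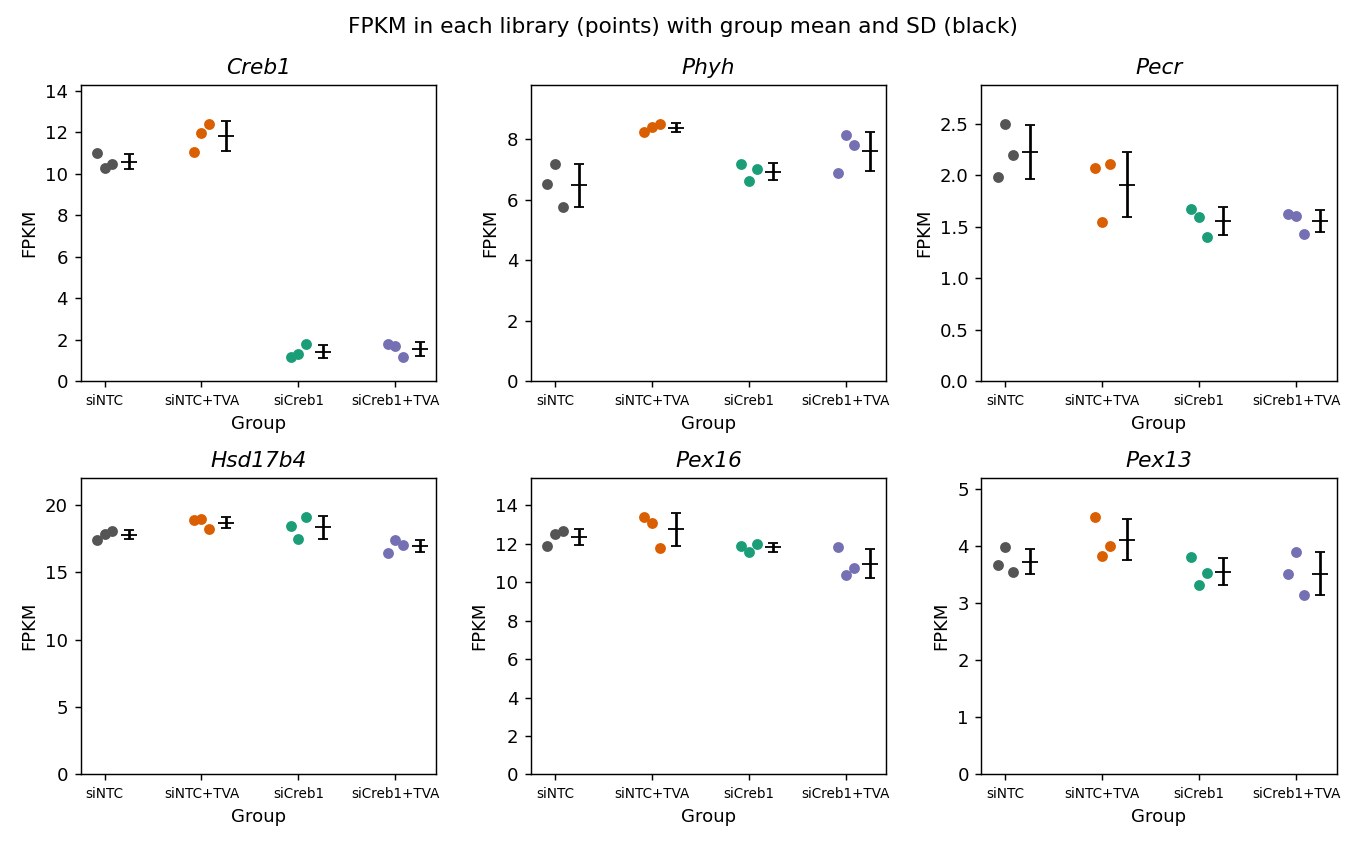
FPKM in each library (coloured points) with the group mean and SD (black, n = 3) for Creb1, the 4 peroxisome genes called in any comparison and Pex13, with axes from 0. Creb1 falls to 1.42 and 1.55 FPKM in the siCreb1 groups, while the peroxisome genes keep group means within a 1.5-fold range.

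The difference of the TVA effect between siCreb1 and siNTC cells was not called for any peroxisome gene. By limma 0 of 25 passed, and 0 by limma-voom, against 2.24% of all tested genes (0.459% higher and 1.78% lower). At an unadjusted p under 0.05 there was 1 gene, Hsd17b4, against 14.3% of all tested genes. The interaction of Hsd17b4 was -0.17 (95% interval -0.29 to -0.06, adjusted p = 0.128). That of Phyh was -0.22 (95% interval -0.44 to 0.01, adjusted p = 0.364), so the rise of Phyh in siNTC cells was not shown to differ from its change in siCreb1 cells. The widest interval was again that of Amacr, -0.14 to 0.89, and 24 of 25 intervals lay within 0.585 either way on the log2(FPKM + 1) scale, against 83.4% of all tested genes. The median was -0.01 over the 25 genes and 0.00 over all tested genes.

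Across the 4 groups the peroxisome genes varied little, and by the median gene about as little as all tested genes. The highest group mean was 1.12 times the lowest for the median gene of the 25, against 1.14 times over all tested genes. It was under 1.2 times for 20 of 25 genes (80%, against 67.13% of all) and under 1.5 times for all 25 (against 90.39% of all). The largest ratios were those of Amacr (1.43), Pecr (1.43), Phyh (1.30) and Decr2 (1.29), all enzymes. Phyh and Decr2 had their highest mean in siNTC+TVA and their lowest in siNTC, and Pecr had its highest in siNTC and its lowest in siCreb1+TVA. In the 4 comparisons and the interaction, 4 of the 25 genes were called at least once and 21 in none, against 21.4% of all tested genes called at least once.

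The summed level of all 28 genes was 270.2 ± 1.41 FPKM (SD, n = 3) in siNTC, 272 ± 4.71 in siNTC+TVA, 262 ± 3.51 in siCreb1 and 263 ± 3.11 in siCreb1+TVA. The highest siCreb1 library (266 FPKM) lay below the lowest siNTC library (269 FPKM), and the highest siCreb1+TVA library (266 FPKM) below the lowest siNTC+TVA library (267 FPKM). This order depended on the scaling, because after rescaling to TPM the sums were 753 ± 12.8 in siNTC, 759 ± 30.1 in siNTC+TVA, 754 ± 18.4 in siCreb1 and 762 ± 5.28 in siCreb1+TVA, with overlapping groups. The sum of the CD8 T cell markers was 2160 to 2176 FPKM in siNTC and 2034 to 2052 in siCreb1. Of these markers Cd8b1 was lower in siCreb1 (934 against 835 FPKM, adjusted p = 0.000665). Cd3d (256.4 against 231.1, adjusted p = 0.0062), Cd3g (133.6 against 121.6, adjusted p = 0.0099) and Lck (331.7 against 309.5, adjusted p = 0.016) were lower too. Cd8a was higher (417 against 443 FPKM, adjusted p = 0.00398), as was Cd3e without a call (94.69 against 100.8, adjusted p = 0.104). The part of these markers in the sum of the peroxisome genes was not tested. The 12 peroxins summed to 84.6 ± 1.45, 82.2 ± 3.87, 80.1 ± 1.77 and 80.0 ± 1.16 FPKM in the same order of groups, and the 13 enzymes to 180.3 ± 2.22, 184 ± 1.34, 176 ± 1.95 and 177 ± 1.98. These sums weigh the abundant genes most, Scp2 and Cat above all, and were not tested.

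**Figure D4:**
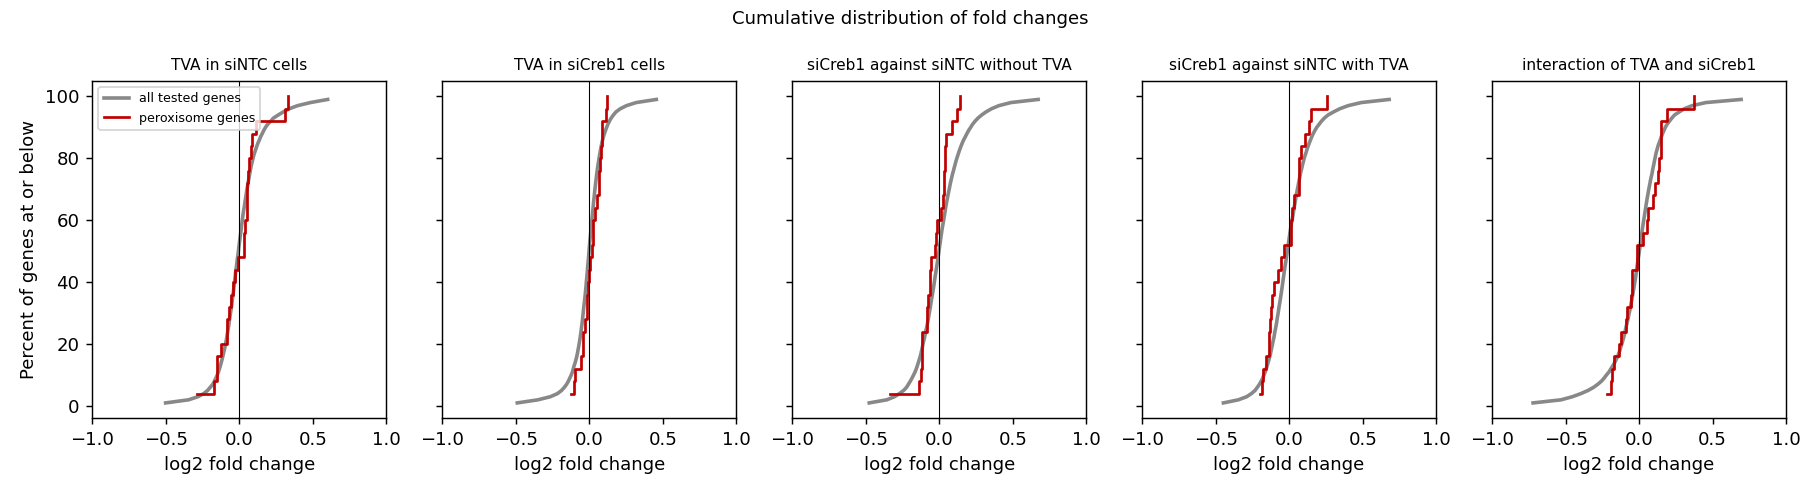
Cumulative percent of genes (vertical axis) at or below a log2 fold change (horizontal axis) for the 25 tested peroxisome genes (red steps) and all 11550 tested genes (grey, drawn between the 1st and 99th percentiles), in 5 panels for the 4 comparisons and the interaction. The red and grey curves run close together around 0 in every panel, with medians of the peroxisome genes between -0.03 and 0.04.

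The 49 other peroxisomal genes of a second list held a few further calls, with shares near or below those of all tested genes. Of these, 32 were tested, 17 were under 1 FPKM, and 4 of those (Pex5l, Hao2, Ddo and Uox) were at 0 in all libraries. With TVA in siNTC cells 0 of 32 were called higher, against 4.49% of all tested genes, and 1 lower, against 2.88%. Mvk, the mevalonate kinase of isoprenoid synthesis, was 7.66, 8.70 and 7.05 FPKM in siNTC and 5.99, 6.36 and 5.62 in siNTC+TVA (difference -0.33, adjusted p = 0.0239). In siCreb1 cells 0 of 32 were called with TVA by limma, against 0.537% of all tested genes. At an unadjusted p under 0.05, 0 were higher and 4 lower. Of all 11550 tested genes, 484 were higher and 622 lower at that threshold (9.58% in either direction). Mvk differed there by -0.36 (adjusted p = 0.084), and the difference between the 2 TVA effects was not called for any of the 32.

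With knockdown of Creb1 and no TVA, 2 of the 32 were higher, against 6.52% of all tested genes, and 2 lower, against 7.21%. Prdx5, a peroxiredoxin found in peroxisomes, mitochondria and cytosol, was 33.4, 34.7 and 34.8 FPKM in siNTC and 27.1, 30.2 and 28.5 in siCreb1, with no overlap. Its difference of -0.26 had an adjusted p of 0.00165, and it kept the call in all 21 alternative fits. Fis1, a fission adaptor shared with mitochondria, was also lower (difference -0.15, adjusted p = 0.0297). Dnm1l, the dynamin-like GTPase of the same fission step, rose by 0.19 (adjusted p = 0.0208), and Pxmp2, a channel of the peroxisomal membrane, by 0.41 from 25 to 69 reads per library (adjusted p = 0.0473). With TVA present, 0 of the 32 were higher, against 4.64% of all tested genes, and 2 lower, against 5.51%. Nudt19, a coenzyme A diphosphatase, was 15.9, 15.8 and 16.9 FPKM in siNTC+TVA and 13.0, 13.1 and 12.9 in siCreb1+TVA. The groups did not overlap, and the difference of -0.30 (adjusted p = 0.00148) kept its call in all 21 alternative fits. Prdx5 fell by 0.13 (adjusted p = 0.0464). Of 7 PPAR receptors, partners and coactivators, 4 were tested, and Ppargc1b, a coactivator, was higher in siCreb1+TVA than in siNTC+TVA (difference 0.26, adjusted p = 0.0429). The receptors Ppara and Pparg held at most 2 and 6 reads per library, and the coactivator Ppargc1a at most 7. The receptor Ppard averaged 3.41 FPKM on 401 to 642 reads per library and was not called in any comparison. Of the 12 fits that each left out 1 library, 4 ended the call of Mvk, 4 that of Fis1, 3 that of Dnm1l, 9 that of Prdx5 under TVA and 10 each those of Pxmp2 and Ppargc1b.

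**Figure D5:**
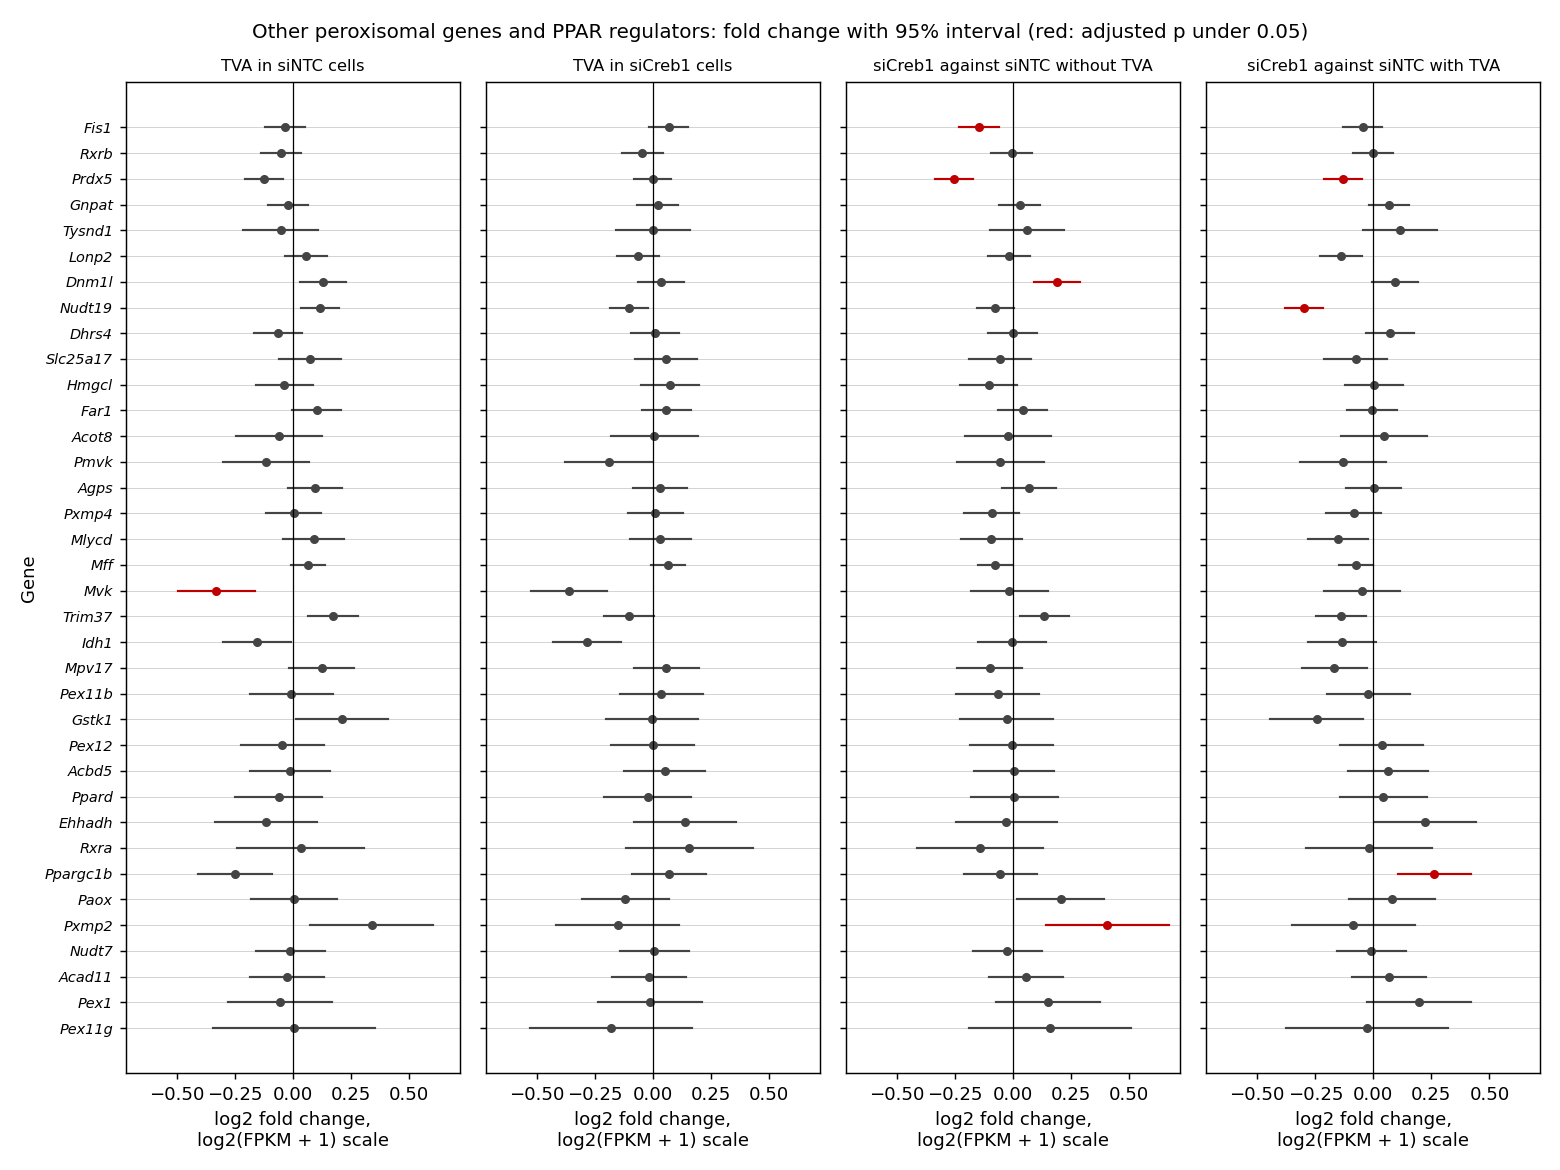
Log2 fold change (points, on the log2(FPKM + 1) scale) with its 95% interval (lines) for the 32 other peroxisomal genes and 4 PPAR regulators tested, in 4 comparisons, rows ordered by mean FPKM, with adjusted p under 0.05 in red. Red marks are few and their differences lie between -0.33 (Mvk) and 0.41 (Pxmp2).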

How the data were processed

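RNA-seq of 12 libraries in 4 groups of 3 was used. The authors deposited FPKM values, 1 file per library, which they had scaled by gene length and library size. The submitters' processing notes name GRCm38 (mm10), and the aligner, counting program and annotation release are not given in the sources used here. Positions of 27 of the 28 genes equal those in GENCODE vM21.

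FPKM times gene length gave whole reads for at least 99.995% of the genes above 0 in each library (tolerance 0.05 of a read), which gave the depths. The variance between replicate libraries was 3.54 to 5.29 times that of counting, so no library was a copy of another. Genes averaging 1 FPKM or more (11550) were compared on log2(FPKM + 1) in 1 limma fit of all libraries (R 4.3.3, limma 3.58.1, moderated variances with a trend over the mean). P-values were Benjamini-Hochberg adjusted over all tested genes (threshold 0.05), and the intervals are of 95%. An exact permutation test of 3 against 3 libraries cannot go below 0.1 and was not used. The fits were tested on simulated data.

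The peroxisome genes, the other lists and the tests were chosen with earlier results of these data known. Named are Creb1, all 28 genes, genes of the second list and PPAR regulators with an adjusted p under 0.05, and the markers, and Trim37 for its opposite TVA differences. Values in every library are given for called members, for the highest and the lowest. The values of Cat, Crot, Decr2, Ech1, Pex5, Pex13 and Ppard, and the genes near or at 0, were added after their values were seen. The fits were repeated with 0.1 as the pseudocount, with all 29700 genes above 0 or only the 7480 averaging 5 FPKM or more, after quantile normalization or conversion to TPM, with a replicate block, without the trend, by limma-voom on the recovered reads, on only the libraries compared, and without each library in turn. The summed level in TPM was added after seeing the data. Some items of the second list are not reported here. Promoter windows came from RefSeq, and plots were made in Python 3.11.15 (matplotlib 3.10.9).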

Additional observations from a re-analysis of the deposited data

Results flagged for a closer look

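For 4 of the 61 tested genes of the 3 lists (6.56%), against 1.68% of all tested genes, all TVA libraries lay on one side of the untreated libraries in siNTC cells and on the opposite side in siCreb1 cells. The difference between the 2 TVA effects was tested as the interaction in limma, and none of the 4 passed the adjusted threshold. It was -0.17 for Hsd17b4 (adjusted p = 0.128), -0.27 for Trim37, a ubiquitin ligase that stabilizes PEX5 (adjusted p = 0.075), -0.22 for Nudt19 (adjusted p = 0.0575) and 0.32 for Ppargc1b (adjusted p = 0.16). Nudt19 was 14.8 ± 0.57 FPKM (SD, n = 3) in siNTC, 16.2 ± 0.582 in siNTC+TVA, 14.02 ± 0.425 in siCreb1 and 13.0 ± 0.0878 in siCreb1+TVA.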

How the results depend on the processing

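The count of called peroxisome genes rested on few genes near the threshold. With TVA in siNTC cells it was 0 in place of 1 with no filter on low genes and in a fit of only the libraries compared, where Phyh had adjusted p of 0.0548 and 0.0699. Leaving out 1 library gave 0 to 1, and without siNTC replicate 3 the 1 call was Pex5. With knockdown and no TVA the count was 0 in place of 1 with no filter, with a mean FPKM of at least 5 (which leaves Pecr untested), after rescaling to TPM, by limma-voom and in only the libraries compared, and 0 to 1 when 1 library was left out. Under TVA the knockdown count was 0 in place of 2 with no filter, after rescaling to TPM, without the trend and in only the libraries compared. It was 1 after quantile normalization (Pex16) and 1 by limma-voom (Acox3, higher), and 0 to 2 when 1 library was left out. For the TVA effect in siCreb1 cells and the interaction it was 0 in every alternative. The cause of these losses was not tested. The median differences moved by less than 0.0645 in every alternative, the SD of the library medians within groups. This limit was larger than the medians themselves, so a change of sign also passed it. The medians ranged from -0.061 to 0.015 for knockdown without TVA and from -0.059 to 0.019 with TVA. No called gene changed direction in any alternative. The median of all tested genes shifted by at most 0.05 under any scaling, and depth limited Abcd2, Hacl1 and Pex11a.

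The labels number the libraries of each group 1 to 3, but do not say that a number marks a shared mouse or day. Deviations of same-numbered libraries correlated between -0.059 and 0.06 over 18 pairs, so the numbers were not taken as a pairing. Under a replicate block the counts were 1 for TVA in siNTC cells, 0 for TVA in siCreb1 cells, 0 and 0 for knockdown without and with TVA, and 0 for the interaction.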
